A study of Mus musculus with 7 samples.

Results

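The mesenchymal-state genes of glioma studied here are 9 genes, namely Cd44, Vim, Anxa1, Anxa2, S100a4, S100a6, S100a10, S100a11 and Tgfbi, read by symbol from a table of 19257 genes in endpoint mouse tumors. All 9 were in the table, and all 9 were among the 14782 genes tested because their mean normalized count was at least 10. Glioma cells occupy several transcriptional states, and the mesenchymal one is marked by genes of the cytoskeleton, of calcium-dependent membrane binding and of cell-matrix adhesion. It is known from human glioblastoma, where it goes with inflammation and with infiltrating macrophages. The same genes are also transcribed in macrophages, T cells, fibroblasts, vessel cells and reactive astrocytes, so their level in bulk tissue is a sum over cells.

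Both groups of tumors were made by in utero electroporation of a single construct that carries Cas9 and guides against tumor suppressor genes, among them Trp53 and Nf1, with a GFP reporter inserted by the piggyBac transposon. 3xCR tumors carry only these (3 libraries, replicates 2, 3 and 4), and GPC6 tumors in addition overexpress the glypican GPC6 from a piggyBac transposon (4 libraries, replicates 1 to 4). The mice were on CD-1 and C57BL/6 backgrounds and of both sexes, and tissue was taken at endpoint under fluorescence microscopy. The age at endpoint, the background and the sex behind each library are not given, and tumor cells were not sorted from the surrounding brain. Each library is taken as 1 brain. No non-tumor brain was analysed, so levels are relative to the other tumors only. The libraries held 7197692 to 18879762 reads on genes. Gpc6 itself was measured at 217, 226 and 126 normalized counts in the 3xCR libraries and at 675, 263, 3434 and 5084 in the GPC6 libraries. The groups did not overlap, but GPC6 replicate 2 lay close to the 3xCR level. Markers of neurons, oligodendrocytes, astrocytes, microglia and vessels were all read in the tissue.

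The stretches upstream of 4 members are shown because S100a6 and S100a4 are the members whose groups did not overlap, and because S100a11 and Anxa2 hold the letters bound by AP-1, a factor of the mesenchymal state. They come from RefSeq promoter windows of the build GRCm38.p6, where 8 of the 9 members had an entry and S100a10 did not. Each is on the plus strand, read 5' to 3', and ends before the first base of any annotated transcript of its gene. The stretch of S100a6 is chr3:90612644-90612881, that of S100a4 is chr3:90603520-90603769, that of S100a11 is chr3:93520246-93520487 and that of Anxa2 is chr9:69453433-69453619. Capitals mark TGAGTCA, a match to the AP-1 letters TGANTCA, and TATAAA, the TATA box, which in Anxa2 lies past the end of the stretch shown.
S100a6: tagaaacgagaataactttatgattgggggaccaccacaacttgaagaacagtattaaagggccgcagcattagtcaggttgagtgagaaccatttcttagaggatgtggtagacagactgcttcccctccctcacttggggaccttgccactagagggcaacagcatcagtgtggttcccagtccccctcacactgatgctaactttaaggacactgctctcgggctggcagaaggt
S100a4: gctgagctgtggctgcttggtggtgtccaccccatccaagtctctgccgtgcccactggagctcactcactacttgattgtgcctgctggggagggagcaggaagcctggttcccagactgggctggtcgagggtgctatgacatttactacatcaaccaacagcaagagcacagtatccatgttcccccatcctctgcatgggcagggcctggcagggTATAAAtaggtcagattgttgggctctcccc
S100a11: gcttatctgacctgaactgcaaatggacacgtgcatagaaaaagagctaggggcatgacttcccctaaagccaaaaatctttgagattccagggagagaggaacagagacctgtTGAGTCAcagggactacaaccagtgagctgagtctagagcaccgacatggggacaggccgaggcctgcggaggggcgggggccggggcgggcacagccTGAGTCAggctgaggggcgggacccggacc
Anxa2: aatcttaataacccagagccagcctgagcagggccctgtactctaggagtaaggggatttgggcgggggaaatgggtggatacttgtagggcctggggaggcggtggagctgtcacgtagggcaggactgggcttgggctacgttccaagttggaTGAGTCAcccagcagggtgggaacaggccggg
The full window of 250 bases before the RefSeq start was searched for 5 motifs, of which all but TATAAA were looked for on both strands. TGANTCA was found in S100a11, at 136 and at 38 bases before the start, and in Anxa2, at 95 bases before it, and in 6.75% of the 32851 windows of all genes. TATAAA was found in S100a4, Vim, Anxa1 and Anxa2, at 31, 32, 32 and 17 bases before the start, and in 7.59% of all windows. The windows of Vim and Anxa1 lie before the RefSeq start but wholly inside the gene as annotated in GENCODE. The C/EBP letters TTGCNNAA were found in Anxa1 and in 9.56% of all windows. The STAT letters TTCNNNGAA and the TEAD letters ACATTCC were in none of the 8 windows, and in 7.02% and 3.25% of all windows. No motif overlapped another. S100a6, which differed most between the groups, held none of the 5. A match is a run of letters, and no binding was measured.

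Comparison of GPC6 with 3xCR tumors asks what added GPC6 goes with on the same tumor suppressor background. All 9 members had the lower mean log2 value in GPC6 tumors, with log2 fold changes (GPC6 minus 3xCR, on log2(normalized count + 1)) from -1.92 for S100a6 to -0.47 for S100a10. Their median was -1.16, against -0.02 for all genes tested. It was -0.46 without 3xCR replicate 4 and -0.66 without GPC6 replicate 1. With any other single library left out it was -1.65 to -1.20. Over all genes tested, 51.7% had the lower mean in GPC6 tumors. A log2 fold change of -1 or less was found for 6 of the 9 members, against 4.69% of all genes. In spite of this none of the 9 passed an adjusted p of 0.05 in limma, and neither did any other gene (0% of genes), with the smallest adjusted p at 0.730. Without adjustment S100a6 and S100a4 had a p under 0.05 in the direction of lower values, 2 of 9 members against 1.92% of all genes. The same 2 had groups that did not overlap, as did 3.52% of all genes in that direction. In the opposite direction no member passed either criterion, which 2.74% and 2.80% of all genes did. With edgeR no gene passed an adjusted p of 0.05. With DESeq2 on the recovered reads 4 genes did, none of them a member, and 4 members (S100a6, S100a4, Anxa1 and Anxa2) had an unadjusted p under 0.05, against 2.95% of genes in that direction. The 95% intervals of the other 7 members held 0 in limma. In bulk tissue fewer cells of a type and less RNA per cell cannot be told apart.

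**Figure D1:**
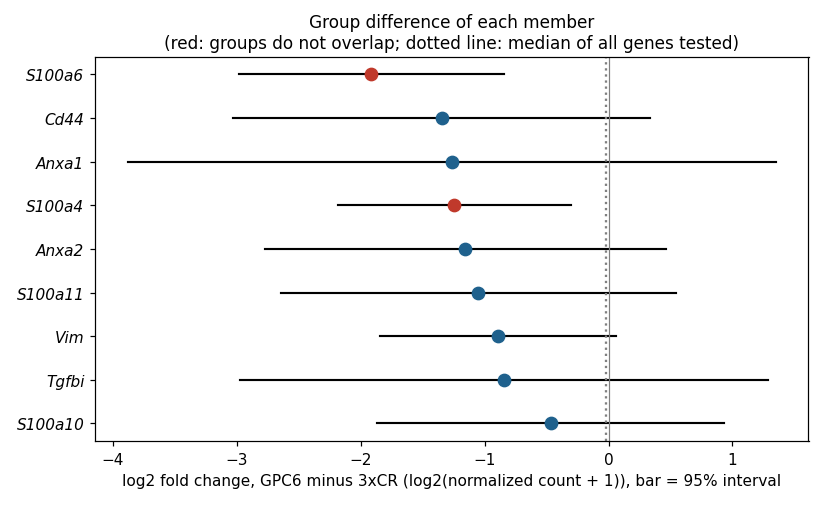
Log2 fold change of each member, GPC6 minus 3xCR, with its 95% interval from limma over 7 libraries (horizontal axis, log2 of normalized count + 1). All 9 points lie below 0, and only the intervals of S100a6 and S100a4 (red, groups not overlapping) leave 0 out.

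Most members spread widely within a group. The median SD of the log2 values was 1.07 over the members in 3xCR tumors and 1.02 in GPC6 tumors, against 0.35 and 0.53 over all genes tested. A pair of libraries made the ends. All 9 members were highest in 3xCR replicate 4, where 23.9% of all genes were highest. GPC6 replicate 1 held the lowest value of 8 of the 9 members, and 31.3% of all genes were lowest there. Both held for 8 members and for 12.9% of all genes. The exception was S100a6, lowest in GPC6 replicate 2. These 2 libraries were also those with the fewest reads on genes, 8322446 in 3xCR replicate 4 and 7197692 in GPC6 replicate 1, and the part of depth was not tested. The mean of the 9 members' log2 values, each centred on its mean over the 7 libraries, was -0.37, 0.43 and 1.87 in 3xCR replicates 2, 3 and 4. It was -1.72, -0.03, -0.29 and 0.10 in GPC6 replicates 1, 2, 3 and 4. Between the ends the groups were mixed, since 3xCR replicate 2 lay below 3 of the 4 GPC6 libraries. When both end libraries were left out, a step chosen after seeing the data that removes the highest library of 1 group and the lowest of the other, the median log2 fold change of the members was -0.03.

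**Figure D2:**
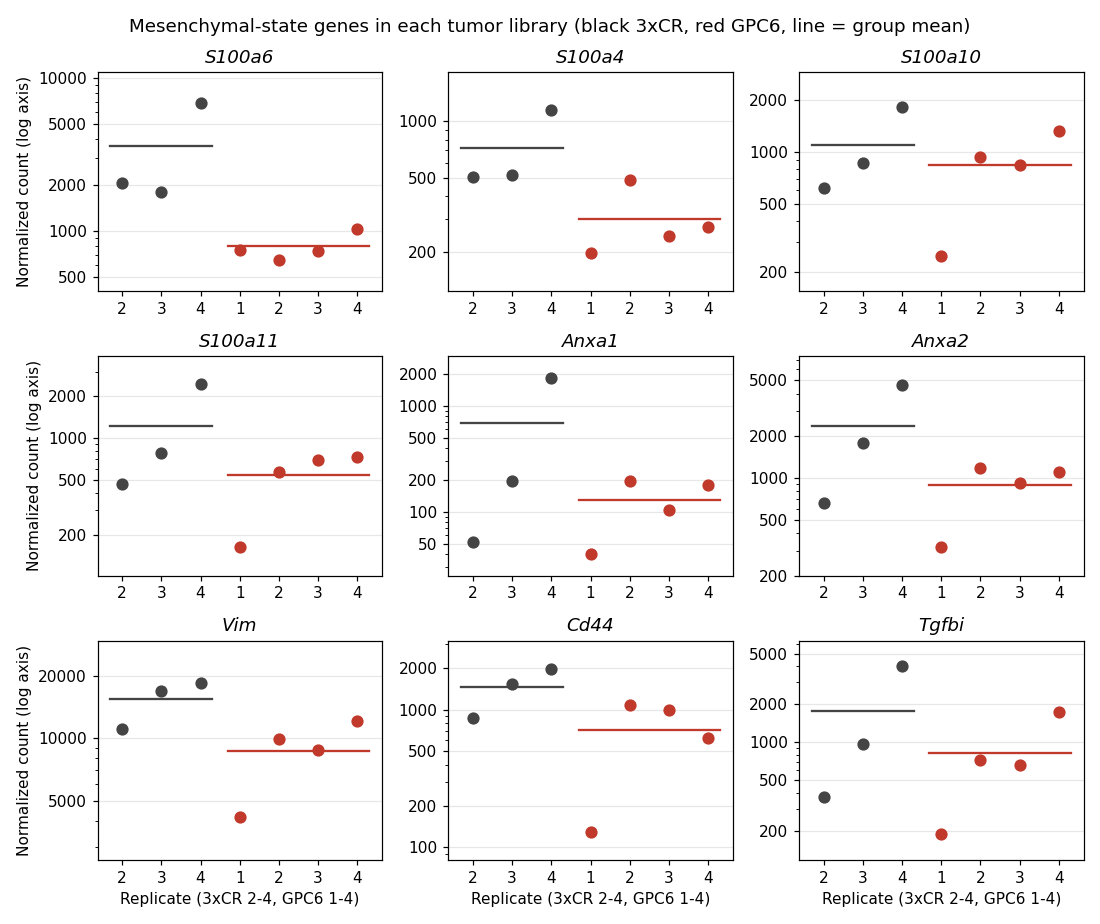
Normalized count of each member in each library (vertical log axis, 1 panel per gene), 3xCR replicates 2 to 4 in black and GPC6 replicates 1 to 4 in red, with a line at each group mean. 3xCR replicate 4 is the highest point of every panel, and the black and red points are apart only for S100a6 and S100a4.

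S100 proteins are small proteins, most but not all of them calcium sensors, that bind and alter partner proteins. Among the members 4 belong to them. S100a6, calcyclin, is a marker of stem-like astrocytes and of many tumors. It was measured at 2065, 1802 and 6894 normalized counts in 3xCR replicates 2, 3 and 4, and at 754, 644, 741 and 1035 in GPC6 replicates 1 to 4. Every 3xCR library lay above every GPC6 library, and the lowest 3xCR value was 1.74 times the highest GPC6 value. Its means were 3587 ± 2867 (SD, n = 3) and 794 ± 168 (SD, n = 4), a ratio of 4.52 of 3xCR over GPC6. The log2 fold change was -1.92 (SE 0.46, 95% interval -2.98 to -0.85), with an unadjusted p under 0.05 and an adjusted p of 0.730 in limma. The adjusted p of DESeq2 was 0.0684. Without 3xCR replicate 4 the log2 fold change of S100a6 was -1.30, and without both end libraries it was -1.29. In limma the unadjusted p of S100a6 stayed under 0.05 in both cases, while the adjusted p was 0.999 and 0.99998. It had the narrowest spread of the members in GPC6 tumors, with an SD of log2 of 0.29 against 1.07 in 3xCR tumors.

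S100a4, known as metastasin for its part in cell motility and also as a fibroblast marker, was measured at 506, 520 and 1151 normalized counts in the 3xCR libraries. In the GPC6 libraries it was at 198, 485, 243 and 274. The groups did not overlap, but the gap was narrow, since the lowest 3xCR value was 1.04 times the value of GPC6 replicate 2. The means were 725 ± 368 (SD, n = 3) and 299.9 ± 127 (SD, n = 4). Its log2 fold change was -1.25 (SE 0.41, 95% interval -2.19 to -0.30), with an unadjusted p under 0.05 and an adjusted p of 0.730 in limma. The unadjusted threshold was no longer passed without 3xCR replicate 4 (log2 fold change -0.86) or without both end libraries (log2 fold change -0.69).

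S100a10, or p11, forms a tetramer with annexin A2 that brings plasminogen to the cell surface. It had 614, 859 and 1820 normalized counts in the 3xCR libraries and 249, 935, 841 and 1328 in the GPC6 libraries. The groups lay across each other, since 3 of the 4 GPC6 libraries exceeded 3xCR replicate 2 and GPC6 replicate 4 had the second highest value of all. Its means were 1098 ± 637 (SD, n = 3) and 838 ± 446 (SD, n = 4). The log2 fold change of -0.47 (SE 0.61, 95% interval -1.87 to 0.94) was the smallest of the members, with an adjusted p of 0.83 in limma, and it was 0.04 without GPC6 replicate 1. S100a11, calgizzarin, binds annexin A1 and is used in membrane repair. It was at 468, 782 and 2424 normalized counts in 3xCR and at 162, 567, 694 and 721 in GPC6 libraries. GPC6 replicate 1 was well under its group, and 3 of the 4 GPC6 values lay inside the 3xCR range. The log2 fold change of S100a11 was -1.05 (SE 0.69, 95% interval -2.65 to 0.55), with an adjusted p of 0.730 in limma, and it was 0.12 without both end libraries.

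The S100a genes sit on chromosome 3, which allowed members to be set beside their neighbors. S100a4 (chr3:90603771-90606045 in GRCm38, plus strand) starts 9.11 kb before S100a6 (chr3:90612882-90624181, plus strand), with S100a5 between them. S100a11 (chr3:93520488-93526287) and S100a10 (chr3:93555080-93564643) start 2.91 and 2.94 Mb farther on. S100a5 had at most 1.77 normalized counts in any library, while S100a4 and S100a6 on either side of it had 482 and 1991 on average. Over the 6 tested S100a genes of the same stretch that are not members, the log2 fold change was -0.26 for S100a1, -0.53 for S100a13, -0.19 for S100a16, 0.72 for S100a3, 0.04 for S100a8 and 0.47 for S100a9, none with an unadjusted p under 0.05. S100a8 and S100a9, the subunits of calprotectin of neutrophils, had 3.29 to 34.0 normalized counts. The ratio of S100a6 to S100a10 within a library was 3.36, 2.10 and 3.79 in 3xCR tumors. It was 3.03, 0.69, 0.88 and 0.78 in GPC6 tumors, so that GPC6 replicate 1 lay with the 3xCR libraries on this ratio and the other 3 did not.

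**Figure D3:**
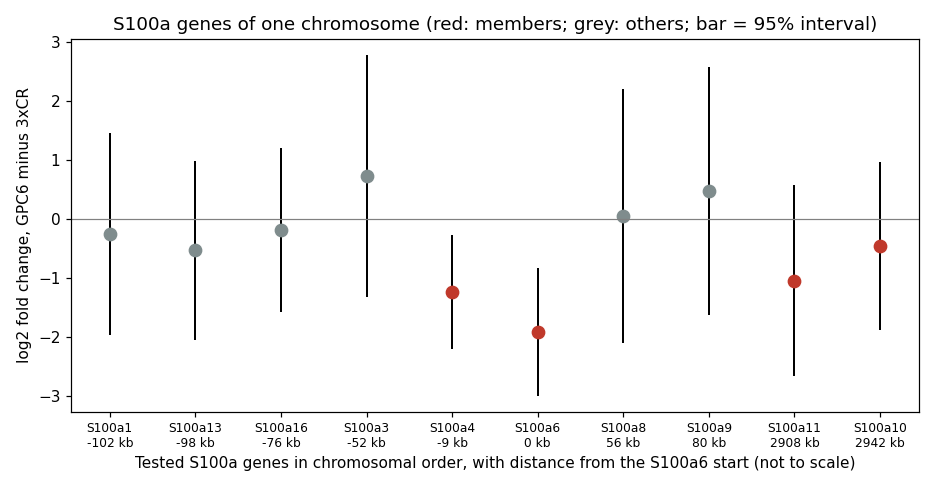
Log2 fold change (GPC6 minus 3xCR) with its 95% interval for the 10 tested S100a genes of chromosome 3, in chromosomal order with the distance from the S100a6 start under each name, members in red and other genes in grey. S100a4 and S100a6, at -1.25 and -1.92, are the only points whose intervals leave 0 out. They are adjacent among the tested genes only, since the untested S100a5 lies between them.

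Annexins bind acidic phospholipids when calcium rises. Anxa1, a target of glucocorticoids that restrains leukocyte entry through formyl peptide receptors, varied most of all members, 45.9-fold from its lowest to its highest library. It was measured at 52.1, 195 and 1843 normalized counts in the 3xCR libraries and at 40.2, 195, 105 and 180.0 in the GPC6 libraries. Only 3xCR replicate 4 stood out, and 3xCR replicate 2 was below 3 of the 4 GPC6 libraries. The means of 697 ± 995 (SD, n = 3) and 129.9 ± 71.6 (SD, n = 4) differed by less than the SD of the 3xCR group. That gave a log2 fold change of -1.27 (SE 1.13, 95% interval -3.88 to 1.35), with an adjusted p of 0.761 in limma. Without 3xCR replicate 4 it was 0.13.

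Anxa2, the partner of S100a10 on the cell surface, was at 663, 1770.2 and 4629.9 normalized counts in 3xCR and at 319.9, 1181, 919 and 1109 in GPC6 libraries. Its 2 highest values were in 3xCR tumors, and 3xCR replicate 2 lay among the GPC6 libraries. The means were 2354 ± 2047 (SD, n = 3) and 882 ± 391 (SD, n = 4). On the log2 scale Anxa2 differed by -1.16 (SE 0.70, 95% interval -2.78 to 0.46), with an adjusted p of 0.730 in limma. It was -0.46 without 3xCR replicate 4 and -0.03 without both end libraries. In GRCm38 Anxa1 lies at chr19:20373428-20390944 on the minus strand and Anxa2 at chr9:69453620-69491795 on the plus strand.

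Vim encodes vimentin, the intermediate filament of mesenchymal cells and of reactive and immature astrocytes (chr2:13573927-13582826 in GRCm38, plus strand). It was measured at 11136, 16783 and 18431 normalized counts in the 3xCR libraries and at 4162, 9897, 8776 and 12052 in the GPC6 libraries. A single GPC6 library, replicate 4, lay above the lowest 3xCR library, and by little, since that 3xCR value was 0.924 times the GPC6 value. Its means were 15450.0 ± 3826 (SD, n = 3) and 8722 ± 3329.6 (SD, n = 4). Vim had a log2 fold change of -0.89 (SE 0.41, 95% interval -1.85 to 0.06), with an adjusted p of 0.730 in limma. Per kilobase of merged exons it was the most abundant member, at 2447 normalized counts averaged over the libraries, above 98.8% of the genes tested. Behind Vim at 3257, the mean level per kilobase in 3xCR tumors was 2624 for S100a6, 2397 for S100a11, 1242 for S100a4, 906 for S100a10, 631 for Anxa2, 470.5 for Tgfbi, 239 for Anxa1 and 217 for Cd44. In GPC6 tumors Vim was at 1839, ahead of S100a11 at 1049, S100a10 at 692, S100a6 at 580.5, S100a4 at 514, Anxa2 at 236, Tgfbi at 219, Cd44 at 105 and Anxa1 at 44.6. The order of S100a6 against S100a11 and S100a10, of S100a4 against S100a10 and of Cd44 against Anxa1 thus changed between the groups, and was not tested.

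Cd44, the receptor for hyaluronan and osteopontin (chr2:102811141-102901665, minus strand), was at 865, 1545 and 1993 normalized counts in the 3xCR libraries. In the GPC6 libraries it was at 129.8, 1093, 989 and 622. GPC6 replicate 1 was far under all others, and GPC6 replicates 2 and 3 lay above the lowest 3xCR library. Its means were 1468 ± 568 (SD, n = 3) and 709 ± 435 (SD, n = 4). The log2 fold change was -1.35 (SE 0.73, 95% interval -3.03 to 0.34), with an adjusted p of 0.730 in limma, and it was -0.66 without GPC6 replicate 1. Tgfbi encodes a secreted matrix protein that TGF-beta induces and that integrins bind (chr13:56609523-56639562, plus strand). It had 368, 978 and 3977 normalized counts in 3xCR and 189, 718, 667 and 1723 in GPC6 libraries. One library of each group, replicate 4, stood high, and 3xCR replicate 2 was below 3 GPC6 libraries. For Tgfbi the log2 fold change was -0.84 (SE 0.92, 95% interval -2.98 to 1.29), with an adjusted p of 0.801 in limma, and it was 0.07 without 3xCR replicate 4.

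Members were read side by side over the 7 libraries by the Pearson correlation of their log2 values, given as a description since all share the same libraries. All 36 pairs had a positive r, with a median of 0.84 (range 0.52 to 0.97), and a median Spearman rho of 0.80 (range 0.25 to 1.00). The highest was Anxa2 with S100a11 (r = 0.97), followed by Anxa1 with Anxa2 (r = 0.96). The known partners Anxa2 and S100a10 had an r of 0.89, Anxa1 and S100a11 one of 0.92, and the chromosomal neighbors S100a4 and S100a6 one of 0.85. S100a6 with S100a10 was the lowest pair (r = 0.52). These values depend on the end libraries, which lie farthest from the median of the members' mean. Leaving out libraries so chosen narrows the range of the members and tends by itself to lower r. Without GPC6 replicate 1 and 3xCR replicate 4, over 5 libraries, the median r was 0.39 (range -0.52 to 0.95) and 25 of 36 were above 0. S100a10 with Tgfbi stayed at 0.95 and Anxa1 with Anxa2 was at 0.88. S100a6 with the other members had a median of -0.11.

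**Figure D4:**
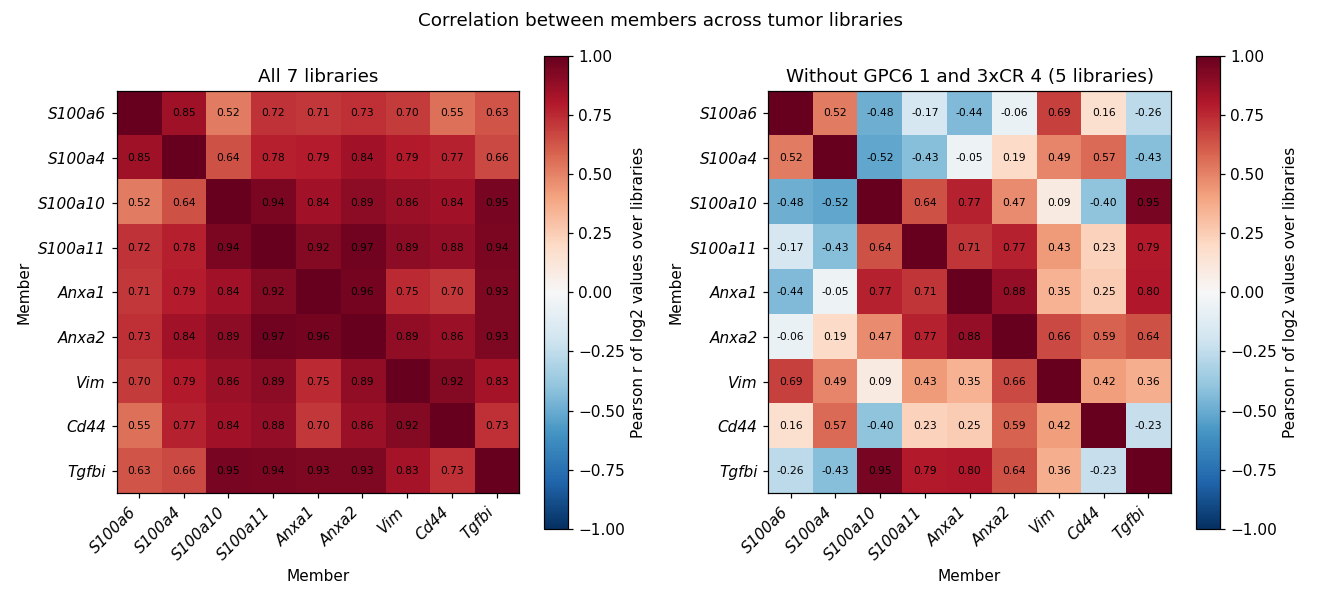
Pearson r of log2 values for each pair of members (color scale from -1 to 1), over all 7 libraries on the left and over 5 libraries on the right, without GPC6 replicate 1 and 3xCR replicate 4. All pairs on the left are above 0. On the right S100a6 and S100a4 have values below 0 with S100a10, S100a11, Anxa1 and Tgfbi. The libraries left out on the right were chosen from the members' own values.

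Of the tested genes outside the members, those with a pattern most like the members' mean over the 7 libraries were Rexo2 (r = 0.996, rho = 0.93), Tnfrsf23 (r = 0.995, rho = 0.96), Emp3 (r = 0.995, rho = 1.00), Mcoln2 (r = 0.993, rho = 0.96) and Sash3 (r = 0.992, rho = 0.89). Emp3 is a tetraspan membrane protein of mesenchymal glioma. It was at 111, 255 and 1065 normalized counts in 3xCR and at 27.8, 138, 121 and 231 in GPC6 libraries, with 3xCR replicate 4 highest and GPC6 replicate 1 lowest as in 8 of the 9 members. Sash3 is an adaptor of lymphocytes, and its values were 212, 296 and 608 in 3xCR and 85.0, 203, 189.8 and 249 in GPC6 libraries.

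A list of 25 further genes of the mesenchymal state was lower in GPC6 tumors for 24 and higher for 1, with a median log2 fold change of -1.03. Of these Lgals1 and Efemp1 passed the unadjusted threshold, both with groups that did not overlap, and none passed the adjusted one. Over all genes tested, 1.92% and 3.52% met these 2 criteria in that direction. Lgals1, galectin-1, was measured at 1769, 2945 and 14931 normalized counts in 3xCR and at 192, 1489, 778 and 1391 in GPC6 libraries. Its log2 fold change was -2.52 (SE 0.91), with an adjusted p of 0.730 in limma. Ctsb, a lysosomal protease and the most abundant of the list, had a log2 fold change of -0.63, and Fn1, fibronectin, was the one with a higher mean, at 0.41. Regulators of the state, transcription factors and cytokine receptors, were tested for 14 of 15 genes, and 13 had the lower mean in GPC6 tumors with a median of -0.45. Runx1, a factor of blood and mesenchymal glioma, was the one past the unadjusted threshold, at 92.1, 137 and 244 normalized counts in 3xCR and 34.0, 82.0, 78.9 and 72.0 in GPC6 libraries (log2 fold change -1.19, SE 0.46, adjusted p of 0.730 in limma). Runx1 and Wwtr1, which encodes the coactivator TAZ, had groups that did not overlap, as did 3.52% of all genes in that direction. The gaps were narrow, with the lowest 3xCR value at 1.12 and 1.04 times the highest GPC6 value. Stat3, the most abundant, was at -0.11 and Bhlhe40 at 0.08. Fosl1, the AP-1 subunit tied to the state, was under the minimum mean, with 0 to 37.3 normalized counts and its highest value in 3xCR replicate 4.

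The relatives that are not members had a median nearer to 0. Of 17 other S100 and annexin genes 13 were tested, of which 9 had the lower and 4 the higher mean in GPC6 tumors, with a median of -0.26 and none past the unadjusted threshold. Anxa4 was lowest at -1.19 and S100a3 highest at 0.72, while S100a16, the most abundant, was at -0.19. Anxa3 had groups that did not overlap, as did 3.52% of all genes in that direction, but its lowest 3xCR value was only 1.03 times its highest GPC6 value. Ligands and binding partners of the members were tested for 13 of 17 genes, with 12 lower, 1 higher and a median of -0.55. Itgb5, an integrin subunit for matrix proteins, passed the unadjusted threshold with a log2 fold change of -0.69 (SE 0.25, adjusted p of 0.730 in limma). Spp1, the CD44 ligand osteopontin, was at -1.51, Msn, the CD44 linker moesin, at -0.59 and Fpr1, a receptor for annexin A1, at 0.12. The TGF-beta list of 13 genes had 11 lower and 2 higher with a median of -0.47. Its Ltbp1, which anchors latent TGF-beta, passed the unadjusted threshold at -1.47 (SE 0.61, adjusted p of 0.730 in limma), while Tgfbr1 was at -0.47 and Smad3 at 0.31.

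Among 8 genes of intermediate filaments and their linkers beside Vim, 4 were lower and 4 higher in GPC6 tumors (median -0.11). Ina, a filament of neurons, passed the unadjusted threshold at 1.94 (SE 0.78, adjusted p of 0.730 in limma), while Gfap was at -0.35 and Des at -0.88. The lists of the other glioma states had medians above 0. Astrocyte-like genes had 7 higher and 5 lower of 12 (median 0.29), precursor-like genes of the oligodendrocyte lineage 7 and 4 of 11 (median 0.14), and neural progenitor-like genes 8 and 4 of 12 (median 0.20). In the last list Dlx5 and Dlx6os1 passed the unadjusted threshold, both higher in GPC6 tumors, as did 2.74% of all genes in that direction. Their groups did not overlap, as for 2.80% of all genes, but the gap was narrow and the counts low. Dlx5 was at 9.32, 6.51 and 0 normalized counts in 3xCR and at 98.9, 9.88, 24.8 and 56.6 in GPC6 libraries. Dlx6os1 was at 7.13, 7.44 and 0 in 3xCR and at 75.7, 8.89, 37.3 and 52.5 in GPC6 libraries. Both were highest in GPC6 replicate 1, which also had the highest mean of the neuronal markers (2.84). Some genes of these state lists also mark normal cells in the lists below. Gfap, Slc1a3 and Aldoc are among the astrocyte markers, Stmn2 and Tubb3 among the neuronal ones. Pdgfra is among the fibroblast markers and Cspg4 among the mural ones. The part of such cells in these medians was not tested, nor were the differences between these lists and the members.

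Markers of several other cell types also differed between libraries, some with the same ends as the members and some not. The lists are given as counts, and as the range over libraries of the mean centred log2 value and of the summed normalized counts. No list had a gene at 0 in all libraries. Macrophage and monocyte markers were lower in GPC6 tumors for 11 of 12 tested genes (median -0.68, none past the unadjusted threshold). Their mean was highest in 3xCR replicate 4 (1.78) and lowest in GPC6 replicate 1 (-2.30), as for the members, and their sum was 4080 to 37896 in 3xCR and 1099 to 13657 in GPC6 tumors. T cell markers were lower for 8 of 8 (median -1.19, with Lck past the unadjusted threshold), also highest in 3xCR replicate 4 (1.83) and lowest in GPC6 replicate 1 (-1.20), with sums of 503 to 1896 and 352 to 528. Microglial markers were lower for 8 of 9 (median -0.67), with Tmem119 and Olfml3 among those past the unadjusted threshold, and had the same end libraries (0.69 and -1.04), with sums of 9579.5 to 13122 and 5226 to 8455. Fibroblast and meningeal markers were lower for 6 of 10 (median -1.03), highest in 3xCR replicate 4 (1.91) but lowest in GPC6 replicate 4 (-1.63), with sums of 8791 to 51896 and 4717 to 23304. These sums hold much Pdgfra, the most abundant gene of the list, which is also in the precursor-like list of the oligodendrocyte lineage. Pdgfra was at 7730, 5657 and 2309 normalized counts in 3xCR and at 3136, 17225, 4681 and 3662 in GPC6 libraries. Markers of proliferating cells were lower for 12 of 12 (median -0.60), lowest in GPC6 replicate 1 (-2.91) but highest in GPC6 replicate 4 (1.08), with sums of 7918 to 16717 and 1437 to 19064. Neuronal markers ran the other way, with 12 of 12 higher in GPC6 tumors (median 2.48), 5 past the unadjusted threshold, highest in GPC6 replicate 1 (2.84) and lowest in 3xCR replicate 4 (-2.34), with sums of 4142 to 8201 and 4109 to 71704. The part of any of these cells in the values of the members was not tested.

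**Figure D5:**
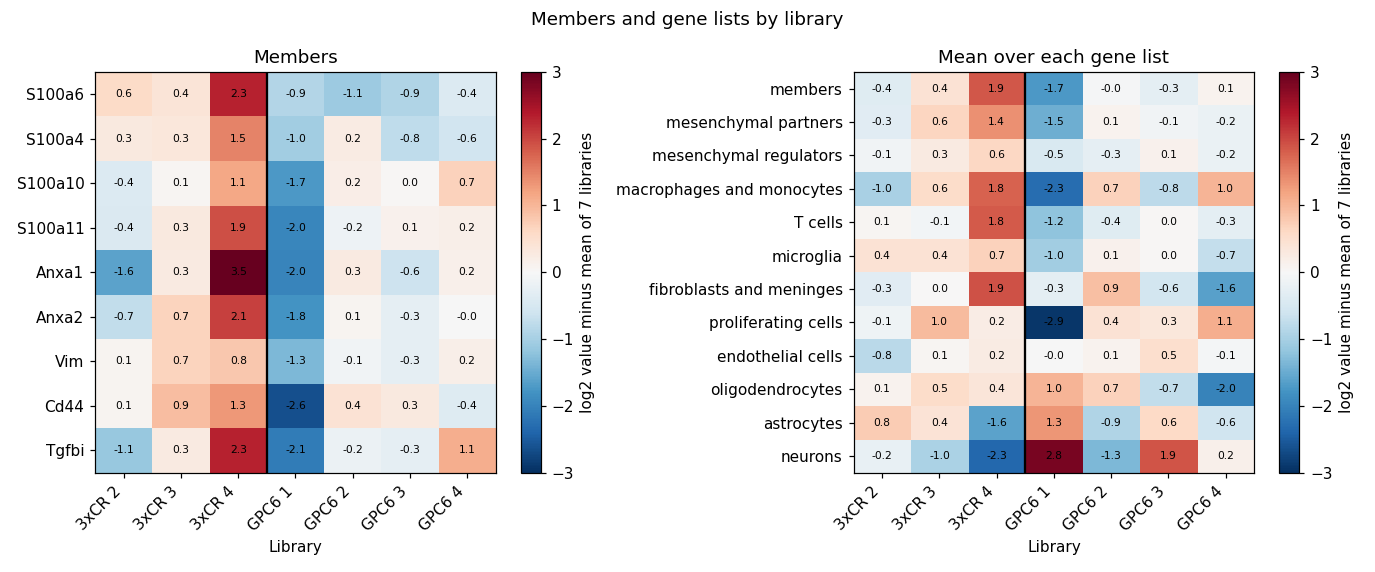
Log2 values minus their mean over 7 libraries for each member (left) and averaged over gene lists (right), with libraries in columns, a line between 3xCR and GPC6, and colors capped at -3 and 3. Members, macrophage and T cell lists are highest in 3xCR replicate 4 and, save S100a6, lowest in GPC6 replicate 1, and the neuron list is the reverse.

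For the remaining cell types the counts were mixed. Oligodendrocyte markers were lower for 8 of 9 (median -0.68), astrocyte markers higher for 6 of 8 (median 0.18), endothelial markers higher for 7 of 9 (median 0.38, with Flt1 past the unadjusted threshold), mural cell markers lower for 5 of 9 (median -0.22), ependymal markers lower for 6 of 7 (median -0.29) and choroid plexus markers lower for 7 of 7 (median -1.65). Neutrophil markers were tested for 2 of 9 genes (median 0.26) and erythrocyte markers for 1 of 6 (-0.86). Of these 8 lists only the mural one had its highest mean in 3xCR replicate 4 (0.48) and its lowest in GPC6 replicate 1 (-0.52), as 8 of the 9 members did.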

How the data were processed

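RNA-Seq libraries of 7 endpoint tumors (3 of 3xCR, 4 of GPC6) were poly(A)-selected and stranded. The authors aligned reads to mm10 with STAR 2.5.0a and normalized gene counts with DESeq2 1.20.0, per the labels and the methods. The deposited table holds, for every gene and library, the DESeq2-scaled count, a signal without correction for length. The rule for reads that fit several genes, and whether strand was used, is not given in the sources used here. Of 19282 entries 25 were named as dates and left out (0.254% to 0.361% of reads). Within 0.01 of a whole number, 100% of values were whole reads. A count of 0 allows 1.64 to 4.64 normalized counts, for counting error only.

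Groups were compared with limma 3.58.1 (R 4.3.3), on values as log2(normalized count + 1) and a mean-dependent variance, over genes with a mean of at least 10, two-sided, with Benjamini-Hochberg adjustment over all 14782. edgeR 4.0.16 (quasi-likelihood), DESeq2 1.42.0 and limma voom on the recovered reads, pseudocounts of 0.5 and 5, other filters and scalings, library weights, a replicate block and each library left out were alternatives. The tests were checked on simulated data. Gene positions and exon lengths come from GENCODE M21 (GRCm38), to which 95.8% of symbols and all 9 members matched. P-values measure the spread between these tumors only. The members, the lists and the tests were chosen with earlier results of these data known. Named were the members, of each list the genes of highest mean and of largest and smallest change where an example was needed, the 5 genes most like the members and Gpc6. Other genes were named after their values were seen, because they passed a threshold. Some genes are not reported here.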

Additional observations from a re-analysis of the deposited data

Results flagged for a closer look

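S100a11 in GPC6 replicate 1 stood apart from its group, at 162 normalized counts against 567 to 721 in the other 3 GPC6 libraries. On the log2 scale its gap to the nearest library was 0.839 of the range of the group, above Dixon's critical value for 4 samples. On the normalized counts themselves the gap was 0.724 of the range, under that value. It was 1 of 34 quantities looked at, and chance alone gives about 1 in 20.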

How the results depend on the processing

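Of 171 member fold changes under 19 alternatives, 163 kept the direction and 160 also the side of the adjusted threshold. S100a6 had an unadjusted p under 0.05 under all 19, which all draw on the same libraries. The groups of S100a6 and S100a4 did not overlap under either other scaling. Members at an adjusted p under 0.05 numbered 0 except with library weights, where there were 3 (Vim, S100a4 and S100a6) among 1962 genes, 13.3% of those tested. DESeq2 called 4 genes. Members at an unadjusted p under 0.05 in either direction numbered 4 with DESeq2 (against 9.77% of all genes), 5 with library weights (34.5%), 1 without both ends (1.34%) and 1 to 4 with a single library left out (1 without 3xCR replicate 4, where 0.808% of all genes passed, and 4 without 3xCR replicate 2, where 7.68% did). Members without overlap numbered 2 to 7 with a library left out, the 7 being without 3xCR replicate 2, where 20.9% of all genes had no overlap. All genes without overlap numbered 1785 without both ends and 1165 to 3098 with a library left out, against 934. Without both ends the median of the members was -0.027, and the log2 fold change was 0.61 for Anxa1, 0.48 for S100a10, 0.12 for S100a11 and 0.64 for Tgfbi. Leaving out a library gave -1.65 to -0.46 for the median, -2.43 to 0.13 for Anxa1, -0.81 to 0.039 for S100a10 and -1.65 to 0.066 for Tgfbi. With a replicate block S100a10 was at 0.039, 2 members kept an unadjusted p under 0.05 and none an adjusted one. As 3xCR has no replicate 1, the block gave the members the same fold changes as leaving out GPC6 replicate 1. The block is thus not a separate estimate, though it is counted among the 19 alternatives. Same-numbered deviations from the group means correlated at -0.19, 0.12 and 0.30 over all genes tested. Differently numbered libraries were not compared, so these values cannot decide whether the numbers pair the samples. No other call of a member changed under the block. The fewest reads behind a member value were 26, for Anxa1 in GPC6 replicate 1.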
